A study of Mus musculus with 5 samples.

Results

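The fibroblast growth factor (FGF) genes of the mouse were examined here for H3K27me3, histone H3 trimethylated at lysine 27, in fibroblasts with and without the demethylase Kdm6b. The set holds every autosomal protein-coding gene whose symbol is Fgf followed by digits only, together with the receptor genes Fgfr1, Fgfr2, Fgfr3, Fgfr4 and Fgfrl1 and the feedback inhibitors Spry1, Spry2 and Spry4. This gave 28 genes, 20 ligands, 5 receptors and 3 Sprouty genes, of 20780 autosomal protein-coding genes and of 21728 when the X chromosome is counted. The ligands Fgf13 and Fgf16 lie on the X chromosome and were not among them.

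The study expanded dermal fibroblasts of E18.5 mouse embryos in AmnioMAX medium and profiled H3K27me3 by ChIP-seq. In the conditional knockout (Kdm6b-cKO), Twist2-Cre, also named Dermo1-Cre, which is active in the dermal mesenchyme, deleted the floxed Kdm6b fl/fl alleles, and the comparison group was wild type (WT). The mice were derived from the C57BL/6 background, and the labels give a sort for GFP for every sample, WT included. In WT, GFP cannot be a sign of the deletion. The genotype and Cre status of the WT libraries are not stated for the ChIP-seq. In its single-cell RNA-seq the study gives WT as Kdm6b fl/fl. There were 2 Kdm6b-cKO libraries (replicates 3 and 4) and 2 WT libraries (replicates 7 and 9), and the sources do not say whether the libraries of a group came from separate embryos, so that the p-values below measure only the spread between these libraries. The files list broad peaks and give no counts, so the reads behind each peak are unknown, and the libraries had been subsampled to a like depth by the study.

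Most FGFs are secreted ligands that bind receptor tyrosine kinases together with heparan sulfate or, for the endocrine ligands, with Klotho proteins, and the receptors signal through the MAP kinase and PI3 kinase cascades. Sprouty proteins are induced by this signal and dampen it. In skin, Fgf7 and Fgf10 are made by the dermal mesenchyme and act on Fgfr2 of the epithelium, and Fgf5 ends the growth phase of the hair follicle. H3K27me3 is placed by Polycomb repressive complex 2 on silent developmental genes, and Kdm6b, also named Jmjd3, removes it.

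The 4 libraries differed in how much of the genome their peaks covered. Peaks on the autosomes and the X chromosome numbered 44077 and 40565 in the Kdm6b-cKO pair and 29841 and 22597 in WT, and covered 148.3, 123.9, 91.4 and 61.5 Mb in that order. WT replicate 9 had the shortest list, and the part of this difference in the results below was not tested beyond the settings given beside them. At the promoters of 10 fibroblast marker genes no library had a peak, while 4 of 4 skeletal muscle markers and 4 of 5 keratinocyte markers were marked in at least 1 library, and 1 of 4 endothelial, 2 of 4 melanocyte and 0 of 4 immune markers were. The muscle gene Myf5 and the melanocyte gene Dct were marked in the Kdm6b-cKO pair alone. Of the keratinocyte genes, Epcam and Cdh1 were marked in all 4 libraries. Krt5 was marked in Kdm6b-cKO replicate 4 alone (12.4% covered) and Krt14 in Kdm6b-cKO replicate 3 alone (19.5%). Kdm6b itself had no peak within 3 kb of its start in any library, and 2.79 and 4.40 kb covered within 25 kb in the Kdm6b-cKO pair against 0 kb in both WT libraries (adjusted p = 0.092 by limma). The peak lists do not show the deletion.

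H3K27me3 lay on ligand and receptor promoters and on no Sprouty promoter. A promoter was taken as 3 kb on either side of the transcription start site (TSS), the 5′ end of the gene in GENCODE M21 (build mm10), and was counted as marked when peaks covered at least 500 bp of it. Of the 28 promoters, 16 were marked in at least 1 library, against 28.8% of all protein-coding promoters. The marked ones were 14 of the 20 ligands, 9 of them in all 4 libraries, and 2 of the 5 receptors, and none of the 3 Sprouty promoters was marked. By library, 14 and 15 member promoters were marked in Kdm6b-cKO replicates 3 and 4, and 11 in each WT library.

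Of the 16 marked promoters, 11 were marked in all 4 libraries, those of Fgf3, Fgf4, Fgf5, Fgf8, Fgf9, Fgf11, Fgf15, Fgf17, Fgf23, Fgfr3 and Fgfr4. Over all promoters marked in at least 1 library this share was 52.7%. The promoters of Fgf6 and Fgf21 were marked in the Kdm6b-cKO pair and in neither WT library, against 14.9% of all marked promoters, and no member showed the reverse. In a bulk culture, a mark on a larger share of the cells and a wider mark in each cell cannot be told apart. Fgf18 and Fgf14 were marked in Kdm6b-cKO replicate 4 alone and Fgf12 in Kdm6b-cKO replicate 3 alone.

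**Figure D1:**
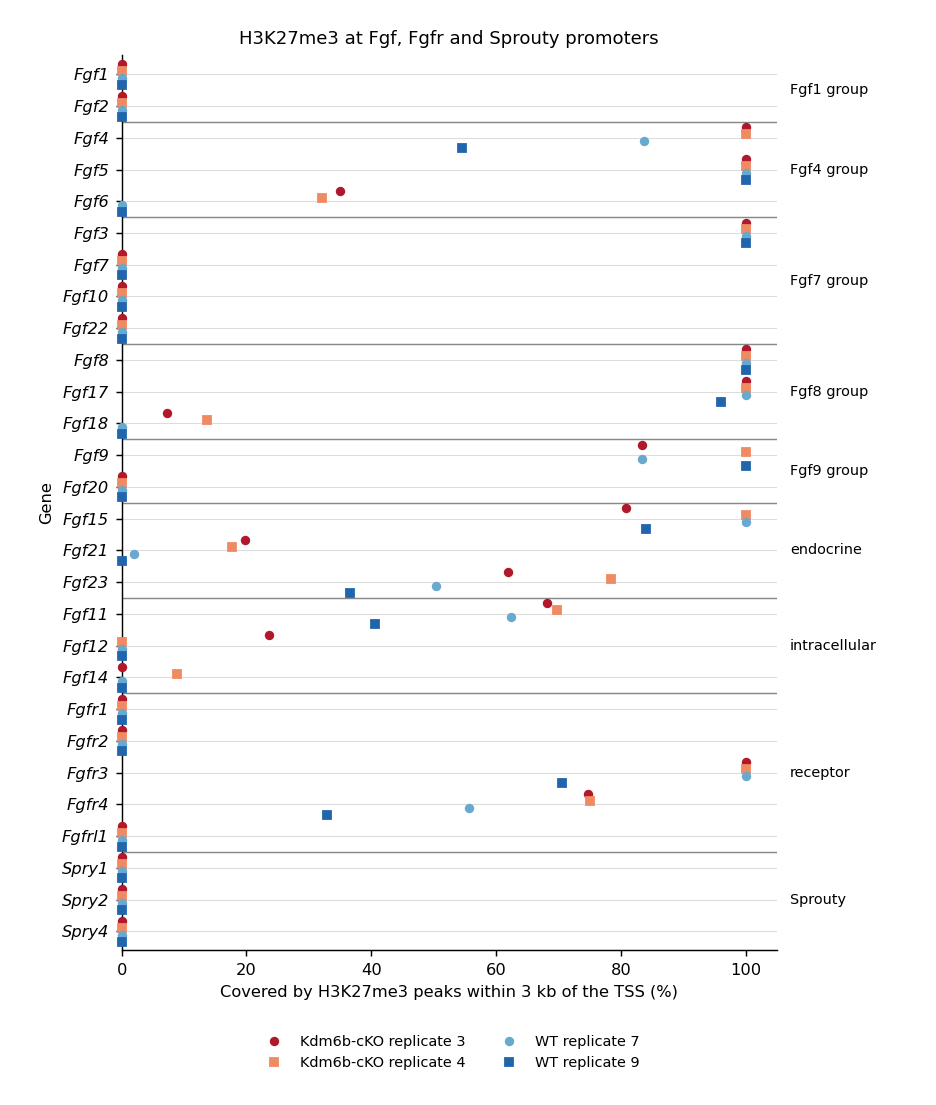
Percent of the TSS ± 3 kb covered by H3K27me3 peaks for each of the 28 genes, ordered by subfamily, with a point for each of the 4 libraries (red and orange, Kdm6b-cKO replicates 3 and 4; light and dark blue, WT replicates 7 and 9). Fgf3, Fgf5 and Fgf8 sit at 100% in every library, and 12 genes sit at 0% in every library. Both Kdm6b-cKO points lie above both WT points at 7 genes, Fgf4, Fgf6, Fgf11, Fgf18, Fgf21, Fgf23 and Fgfr4. Over all tested promoters this share was 49.0%.

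The base sequences just upstream of the start are shown for promoters at either end of this range. Fgf7 and Fgf10 had no promoter peak in any library, Fgfr4 and Fgf9 were marked in all 4, and Fgf6 was marked in Kdm6b-cKO alone. Each line gives the 250 bases before the RefSeq start (GRCm38.p6, the assembly behind mm10), 5′ to 3′ on the strand of the gene, with CpG dinucleotides, the letters CG, in capitals. A CpG reads the same on both strands.
Fgf7: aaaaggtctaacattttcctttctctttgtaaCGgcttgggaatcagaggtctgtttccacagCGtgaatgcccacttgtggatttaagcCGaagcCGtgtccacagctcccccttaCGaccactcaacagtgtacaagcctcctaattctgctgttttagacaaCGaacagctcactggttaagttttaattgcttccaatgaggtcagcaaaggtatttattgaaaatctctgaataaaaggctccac
Fgf10: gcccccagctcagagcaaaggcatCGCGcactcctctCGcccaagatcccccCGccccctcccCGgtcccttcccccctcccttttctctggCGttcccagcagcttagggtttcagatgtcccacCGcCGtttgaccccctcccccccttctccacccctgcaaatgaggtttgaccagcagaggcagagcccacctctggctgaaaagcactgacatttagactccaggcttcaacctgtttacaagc
Fgfr4: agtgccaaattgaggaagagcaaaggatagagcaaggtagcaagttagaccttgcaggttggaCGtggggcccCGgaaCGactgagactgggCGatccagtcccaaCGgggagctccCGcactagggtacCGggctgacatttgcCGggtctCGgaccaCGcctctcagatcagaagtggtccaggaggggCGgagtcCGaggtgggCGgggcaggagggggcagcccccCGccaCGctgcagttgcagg
Fgf9: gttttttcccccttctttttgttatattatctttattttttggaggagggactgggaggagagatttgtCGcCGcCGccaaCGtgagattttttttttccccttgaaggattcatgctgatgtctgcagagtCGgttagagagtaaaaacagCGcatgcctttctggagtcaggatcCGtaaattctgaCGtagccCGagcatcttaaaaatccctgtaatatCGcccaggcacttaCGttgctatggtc
Fgf6: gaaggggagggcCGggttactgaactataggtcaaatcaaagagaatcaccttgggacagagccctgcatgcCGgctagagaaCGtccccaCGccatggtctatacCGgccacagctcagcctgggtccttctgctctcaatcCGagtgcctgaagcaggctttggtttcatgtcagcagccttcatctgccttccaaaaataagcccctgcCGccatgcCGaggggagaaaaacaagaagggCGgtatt
The stretches lie at chr2:126034408-126034657 (Fgf7), chr13:118714449-118714698 (Fgf10), chr13:55152568-55152817 (Fgfr4), chr14:58072436-58072685 (Fgf9) and chr6:127015292-127015541 (Fgf6), all on the plus strand. They hold 6, 8, 15, 11 and 9 CpG dinucleotides in the order printed. Among 32851 promoters of the RefSeq table the median was 6 in 250 bases, and 92.1% held at least 1. Of the 28 genes, 21 had a promoter in that table.

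Over the full 6 kb around the start, the ranges of CpG density of marked and unmarked FGF promoters overlapped. The median was 25 CpG per kb over the 16 marked promoters and 22.9 over the 12 unmarked ones, against 18.2 over all protein-coding promoters. Unmarked promoters were found at both ends of the range, from 5.83 per kb at Fgf10 to 62.3 per kb at Fgfr2. Both of these windows lie around the 5′ end in GENCODE, 44.9 kb from the RefSeq start of Fgf10 and 2857 kb from that of Fgfr2. The Fgfr2 window lies beside the start of Ctbp2, and neither value describes the sequence at the RefSeq start. No test was run, since genes are not replicates.

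The ligands that the dermal mesenchyme is known to make carried no H3K27me3 at their starts in either genotype. Fgf7 (chromosome 2, 126034658 to 126091185, mm10) and Fgf10 (chromosome 13, 118669791 to 118792115) were covered over 0% of the TSS ± 3 kb and of the gene body in all 4 libraries. The nearest peak lay 221.6 to 263.9 kb from the Fgf7 start and 956.6 to 1066 kb from the Fgf10 start. The 5′ end of Fgf10 in this annotation lies 44.9 kb from its RefSeq start, and the window around that start was at 0% as well. Fgf22, the remaining member of this subfamily besides Fgf3, had 0.339 kb covered within 25 kb in Kdm6b-cKO replicate 3 and none in the other libraries. Fgf1 and Fgf2, the broadly acting ligands of the Fgf1 subfamily, had no peak within 25 kb in any library, the nearest being 60.2 kb away.

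Fgf3, of the same subfamily as Fgf7 and Fgf10, lay inside a long domain that peaks covered more fully in the Kdm6b-cKO libraries. Its promoter was covered over 100% in all 4 libraries. The peak across its start was 71.3 and 57.7 kb long in the Kdm6b-cKO pair and 23.2 and 12.2 kb long in WT. In WT replicate 7 that peak ended 6.75 kb downstream of the start, and another of 23.9 kb began at 7.73 kb. In WT replicate 9 a further peak of 17.5 kb began at 13.4 kb. Peak length thus also depends on how the caller split the domain. This domain belongs to a cluster on chromosome 7, where the starts of Fgf3 (144838083) and Fgf4 (144847367) are 9.28 kb apart, and Fgf15 starts at 144896531, 49.2 kb from Fgf4. The windows of TSS ± 25 kb of Fgf3 and Fgf4 share 40.7 kb, and those of Fgf4 and Fgf15 share 0.836 kb, so the values of these genes are not independent of each other.

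Within 25 kb of the Fgf3 start, 50 and 50 kb were covered in the Kdm6b-cKO pair and 42.8 and 30.9 kb in WT, a difference of 13.1 ± 4.56 kb (SE, n = 2 each). Both Kdm6b-cKO values are the full width of the window, and both lie above both WT values. The difference did not pass limma (Benjamini-Hochberg adjusted p = 0.153). Around Fgf4, a ligand of early embryos and limb buds, 50, 48.1, 47.8 and 37.5 kb were covered, and around Fgf15, the mouse counterpart of the bile acid regulated hormone FGF19, 32.3, 32.6, 28.2 and 20.6 kb. The groups did not overlap for either gene, and the adjusted p was 0.344 and 0.164. At the promoter itself Fgf4 was covered over 100% in the Kdm6b-cKO pair and 83.7% and 54.5% in the WT pair (adjusted p = 0.309), and over 100% in all 4 libraries at its second annotated start, 14.0 kb downstream. Without WT replicate 7, the wider windows of Fgf3, Fgf4 and Fgf15 differed by 19.1, 11.5 and 11.8 kb. Without WT replicate 9 they differed by 7.17, 1.23 and 4.29 kb. The Fgf4 promoter differed by 45.5 points without WT replicate 7 and by 16.3 points without WT replicate 9. With centred libraries the wider window of Fgf3 passed limma (9.06 kb, adjusted p = 0.017).

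Fgf6, a ligand known from skeletal muscle, had H3K27me3 peaks within 3 kb of its start in the Kdm6b-cKO libraries alone. It lies on chromosome 6 (127015586 to 127028187, mm10, plus strand). Peaks covered 35.0% and 32.1% of its TSS ± 3 kb in Kdm6b-cKO replicates 3 and 4 and 0% in both WT libraries, a difference of 33.5 ± 1.47 percentage points (SE, n = 2 each, adjusted p = 0.021 by limma). Only promoters with at least 500 bp covered in at least 1 library were tested. Fgf6 reached this filter through the Kdm6b-cKO libraries alone, so the filter set its direction. With no filter the adjusted p by limma was 0.079. In replicate 3 the peak ran from 127014373 to 127016471, across the start. In replicate 4 it ran from 127013780 to 127015579 and ended 0.007 kb before the start, with another peak inside the gene.

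The same gene was the only member past the threshold in the wider window. Within 25 kb, 8.57 and 8.71 kb were covered in the Kdm6b-cKO pair against 0.540 and 1.79 kb in WT, a difference of 7.47 ± 0.80 kb, 7.42-fold, with an adjusted p of 0.037. The Kdm6b-cKO peaks covered 55.6% and 50.9% of the gene body, and the WT peaks 4.29% and 7.23%. The Fgf6 peaks at the promoter were of middling or low strength in their lists. By the authors' −log10 q the peak of replicate 3 stood at the 63.3 percentile of its list and that of replicate 4 at the 3.65 percentile.

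The Fgf6 call at the promoter was lost with the strongest 22597 peaks of each library (18.5 points, adjusted p = 0.572), at a −log10 q of at least 3 (adjusted p = 0.560), with no filter on low windows (adjusted p = 0.079), with each library centred on its mean over all tested promoters (16.4 points, adjusted p = 0.198), without WT replicate 7 (adjusted p = 0.086) and without WT replicate 9 (adjusted p = 0.127). When each list was cut to its strongest peaks at a like covered length, under 500 bp was left at the Fgf6 promoter in every library and the wider window differed by -0.89 kb. In the wider window the call was lost with lists of equal peak number (adjusted p = 0.066), at the stricter q (adjusted p = 0.058), with centred libraries (3.42 kb, adjusted p = 0.136), with no filter (adjusted p = 0.114) and with any 1 library left out (adjusted p from 0.056 to 0.165).

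Fgf21, an endocrine ligand of liver and adipose tissue, was the other member to pass the test at the promoter, but the mark lay upstream of it and did not reach its start. The gene is on chromosome 7 (45613886 to 45615490, minus strand). Its TSS ± 3 kb was covered over 19.8% and 17.8% in the Kdm6b-cKO pair and 1.95% and 0% in WT, a difference of 17.8 ± 1.43 points (adjusted p = 0.039 by limma). Fgf21 too reached the filter of 500 bp through the Kdm6b-cKO libraries alone, so the filter set its direction. The gene body was at 0% in all 4 libraries. The peak edge nearest to the start was 1.81 and 1.94 kb upstream in Kdm6b-cKO, and 2.88 and 7.91 kb away in the WT libraries.

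In the wider window of Fgf21, 19.9 and 16.1 kb were covered in the Kdm6b-cKO pair and 7.66 and 3.13 kb in WT, a difference of 12.6 ± 2.35 kb, 3.34-fold. It did not pass the test (adjusted p = 0.066), and did with centred libraries (8.55 kb, adjusted p = 0.0019). The covered stretch reaches into the promoter windows of neighbouring genes. That of Fut1, a fucosyltransferase gene that starts 1.80 kb upstream, just before the nearest peak edges, was covered over 49.8% and 47.7% in the Kdm6b-cKO pair and 9.35% and 0% in WT. That of Izumo1, a sperm gene 6.32 kb upstream, was covered over 100%, 71.5%, 26.6% and 8.62%. The Fgf21 promoter call was kept with lists of equal peak number (adjusted p = 0.042) and of equal covered length (adjusted p = 0.035). Centring the libraries moved the difference to 0.61 points (adjusted p = 0.964), with no filter the adjusted p was 0.172, and leaving out any 1 of the 4 libraries gave adjusted p-values from 0.086 to 0.166.

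Fgf23, the third endocrine ligand and a regulator of phosphate made in bone, is 57.3 kb from Fgf6 on chromosome 6. Its promoter was covered over 62.0% and 78.4% in the Kdm6b-cKO pair and 50.3% and 36.6% in WT, a difference of 26.8 ± 9.50 points that did not pass (adjusted p = 0.253). Within 25 kb the values were 23.7, 26.5, 21.2 and 12.7 kb (adjusted p = 0.202). The groups did not overlap at either width. The wider window differed by 12.5 kb without WT replicate 7 and by 3.95 kb without WT replicate 9. With an equal covered length per library the promoter difference was -37.6 points (adjusted p = 0.015), the opposite direction.

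**Figure D2:**
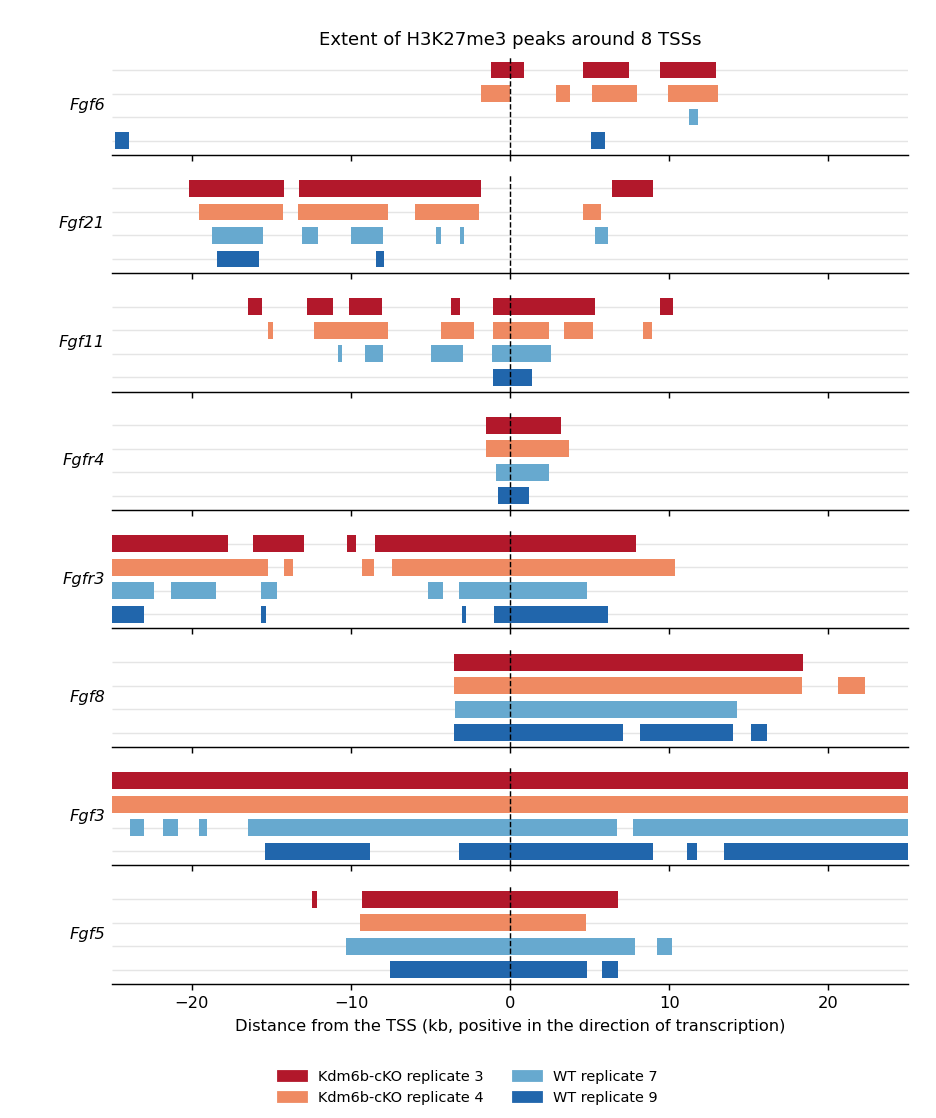
Stretches covered by H3K27me3 peaks within 25 kb of the TSS of 8 genes, with a row for each of the 4 libraries. The x axis is the distance from the TSS in kb, positive in the direction of transcription, the dashed line marks the TSS, and filled bars are peaks. Fgf6 has peaks at its start in the Kdm6b-cKO rows only, and the Fgf21 peaks nearest to the start stop before it. Peaks cover more of the Fgfr3, Fgfr4, Fgf8 and Fgf3 windows in the Kdm6b-cKO rows.

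Fgf5, the ligand that ends hair growth, was fully marked in both genotypes. Its promoter (chromosome 5, start at 98254184) was covered over 100% in every library. Within 25 kb, 16.4 and 14.2 kb were covered in the Kdm6b-cKO pair and 19.0 and 13.3 kb in WT. The WT values enclose those of Kdm6b-cKO, and the difference of -0.87 ± 2.41 kb had an adjusted p of 0.795. Leaving out WT replicate 7 turned it to 1.98 kb, and leaving out Kdm6b-cKO replicate 4 to 0.22 kb.

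In the Fgf8 subfamily, Fgf8 and Fgf17, both signals of brain and limb patterning, carried the mark throughout, and Fgf18, which acts in bone and in resting hair follicles, carried little. The Fgf8 promoter (chromosome 19, start at 45742915, minus strand) was covered over 100% in all libraries. Upstream, the edge of its domain lay 3.44 to 3.54 kb from the start in all 4. Downstream, the peak across the start reached 18.4 and 18.4 kb in the Kdm6b-cKO pair and 14.2 and 7.09 kb in WT. In WT replicate 9 the mark went on after short gaps, with peaks from 8.14 to 14.0 kb and from 15.2 to 16.2 kb. Covered length within 25 kb was 21.9 and 23.6 kb against 17.7 and 17.5 kb, a difference of 5.14 ± 0.89 kb (adjusted p = 0.060). The groups did not overlap, and the difference did not pass.

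The Fgf17 promoter was covered over 100%, 100%, 100% and 96.0% in replicates 3 and 4 of Kdm6b-cKO and 7 and 9 of WT. Within 25 kb of Fgf17, 20.8, 20.7, 18.1 and 16.5 kb were covered (difference of 3.48 ± 0.88 kb, adjusted p = 0.095). Fgf18 had peaks of 0.437 and 0.818 kb within 3 kb downstream of its start in the Kdm6b-cKO pair and none in WT. They covered 7.28% and 13.6% of the Fgf18 promoter (adjusted p = 0.183 by limma). Its wider window held 6.38, 7.02, 5.13 and 4.18 kb. With lists of equal peak number that difference was -0.31 kb.

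Fgf9 and its relative Fgf20, a signal of the hair placode, each carried the mark in all 4 libraries at 1 or more of their starts. Fgf9 was covered over 83.3% and 100% of its promoter in the Kdm6b-cKO pair and 83.3% and 100% in WT, a difference of -0.0083 ± 10.4 points. Its wider window held 19.2, 24.8, 16.4 and 18.9 kb (difference of 4.34 ± 2.41 kb, adjusted p = 0.296). Fgf20 had no peak within 3 kb of the 5′ end of its gene model. At its other annotated start, 21.4 kb downstream at 40286953 on chromosome 8, 96.5%, 95.8%, 100% and 99.5% was covered. It was the only member marked at another start alone, of 11 members with a coding start more than 3 kb from the 5′ end. Within 25 kb of the 5′ end, Fgf20 had 6.41 and 5.97 kb in the Kdm6b-cKO pair and 8.15 and 6.59 kb in WT. It was the only member with both Kdm6b-cKO values below both WT values, and the difference of -1.18 ± 0.89 kb had an adjusted p of 0.413. With centred libraries it was -5.23 kb and passed as lower (adjusted p = 0.029).

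The intracellular members Fgf11, Fgf12 and Fgf14 do not act as secreted ligands and are known as partners of sodium channels in neurons. The Fgf11 promoter (chromosome 11, start at 69801857, minus strand) was covered over 68.1% and 69.8% in the Kdm6b-cKO pair and 62.4% and 40.6% in WT (adjusted p = 0.426). Its peaks were among the strongest of their lists, at the 98.3 to 99.7 percentile of the authors' −log10 q. Within 25 kb, 12.4 and 12.8 kb were covered against 7.17 and 2.44 kb, a difference of 7.82 ± 1.91 kb, 2.63-fold (adjusted p = 0.092). Both Kdm6b-cKO values lay above both WT values. The difference was 10.2 kb without WT replicate 7 and 5.45 kb without WT replicate 9.

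Fgf12 and Fgf14 are long genes, and the 5′ end of the gene model gave another picture than their inner starts. At the 5′ end, Fgf12 was covered over 23.6% in Kdm6b-cKO replicate 3 only and Fgf14 over 8.88% in Kdm6b-cKO replicate 4 only (adjusted p = 0.533 for both). Both WT libraries were at 0% for both genes. Leaving out the unmarked Kdm6b-cKO library leaves a lone value picked for being marked, which cannot test the difference. At the Fgf12 start 307.0 kb downstream, 100%, 100%, 100% and 95.3% was covered. At the Fgf14 start 484.2 kb downstream, 59.0% and 63.5% was covered in the Kdm6b-cKO pair and 40.2% and 33.7% in WT. The inner starts of both genes were thus marked in all 4 libraries.

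Among the receptors, Fgfr3 and Fgfr4 were marked in every library and Fgfr1, Fgfr2 and Fgfrl1 in none. Fgfr1 and Fgfr2 are the main signalling receptors of mesenchyme and of epithelium, and Fgfrl1 lacks the kinase domain. No peak lay within 25 kb of the 5′ end of any of their 3 gene models. The nearest were 27.03 to 259.3 kb from the 5′ end of Fgfr1, 69.4 to 271.0 kb from that of Fgfr2 and 25.9 to 26.6 kb from that of Fgfrl1. The 5′ end of the Fgfr2 gene model lies 2857 kb from the RefSeq start, and the TSS ± 3 kb at the RefSeq start was at 0% in all 4 libraries as well. Neither the wider window nor the nearest peak was read from the RefSeq start. Peaks covered 6.87% and 6.13% of the Fgfr2 gene model in the Kdm6b-cKO pair and 3.54% and 2.52% in WT.

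Fgfr3, which restrains bone growth, had the largest difference in covered length of the receptors. Its promoter (chromosome 5, start at 33721674) was covered over 100% in 3 libraries and 70.5% in WT replicate 9. The promoter difference was 14.8 ± 13.1 points (adjusted p = 0.533 by limma), and 29.5 points without WT replicate 7. Without WT replicate 9, every library was at 100%. Within 25 kb, 27.4 and 28.9 kb were covered in the Kdm6b-cKO pair and 15.5 and 9.71 kb in WT, a difference of 15.5 ± 2.35 kb, 2.24-fold. The groups did not overlap, and the adjusted p was 0.052. The peak across the start was 16.4 and 17.8 kb long in the Kdm6b-cKO pair and 8.03 and 7.12 kb long in WT. The call was made by limma with windows of at least 1500 bp covered (adjusted p = 0.041) and with centred libraries (11.5 kb, adjusted p = 0.00025). Covered length within 25 kb differed by 18.4 kb without WT replicate 7 and by 12.7 kb without WT replicate 9.

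Fgfr4, a receptor of muscle and liver, carried a short peak around its start (chromosome 13, 55152640) and nothing else within 25 kb. The peak was 4.71 and 5.23 kb long in the Kdm6b-cKO pair and 3.34 and 1.97 kb long in WT. It was longer on both sides of the start, with the upstream edge at 1.49 and 1.501 kb in the Kdm6b-cKO pair against 0.914 and 0.759 kb in WT. Promoter cover was 74.8% and 75.0% against 55.7% and 32.9%, a difference of 30.6 ± 10.1 points (adjusted p = 0.232). The promoter difference was 42.0 points without WT replicate 7 and 19.15 points without WT replicate 9. In the wider window the difference was 2.31 ± 0.85 kb (adjusted p = 0.165), and -1.75 kb with centred libraries.

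The Sprouty genes Spry1, Spry2 and Spry4, inhibitors of the receptor signal and themselves its targets, had no H3K27me3 peak near them in either genotype. The nearest peak to Spry1 lay 83.7 and 83.8 kb away in the Kdm6b-cKO pair and 360.6 and 400.6 kb away in WT. It lay 640.1 to 707.4 kb from Spry2. For Spry4 it lay 37.3 and 37.5 kb away in the Kdm6b-cKO pair and 116.1 and 310.6 kb away in WT. Within 3 kb of the start the 3 genes held 43.5, 52.7 and 31.5 CpG per kb.

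Read over all members, the differences at the promoter were set beside those of all promoters. Of the 16 promoters tested, 2 were higher in Kdm6b-cKO by limma and 0 were lower, against 7.93% higher and 0.0960% lower of the 6251 promoters tested. Without adjustment, at a p under 0.05, 3 were higher and 0 lower, against 25.6% and 0.704% of all tested promoters. Both Kdm6b-cKO values lay above both WT values at 7 of the 16 and below them at none, against 49.0% and 2.42% of all tested promoters. The median difference was 11.1 percentage points over the members and 11.7 over all tested promoters, while the means were 12.4 and 17.2. Fgf3, Fgf5 and Fgf8 were at the ceiling of 100% in all 4 libraries and could not differ in this window. Fgf6, Fgf12, Fgf14, Fgf18 and Fgf21 reached the filter of 500 bp through Kdm6b-cKO libraries alone, so the filter set their direction. Both called members are among them, and with no filter 0 members were called. The counts and the median above include these genes, and the same filter was used for all promoters.

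Within 25 kb, 1 of 17 tested members was higher and 0 were lower, against 7.69% and 0% of 11829 windows. Without adjustment, at a p under 0.05, 6 were higher and 0 lower, against 33.8% and 0.144% of all windows. Both Kdm6b-cKO values lay above both WT values for 13 of the 17 and below them for Fgf20 alone, against 65.3% and 1.67% of all windows. The median difference was 5.14 kb over the members and 2.41 kb over all windows, and the means were 5.61 and 4.06 kb. The members tested passed the filter of 500 bp in at least 1 library, which 54.4% of all protein-coding genes did. Fgf12 and Fgf14 passed it through a Kdm6b-cKO library alone. The other 11 members, among them Fgf7, Fgf10 and the Sprouty genes, had less than 500 bp in every library.

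**Figure D3:**
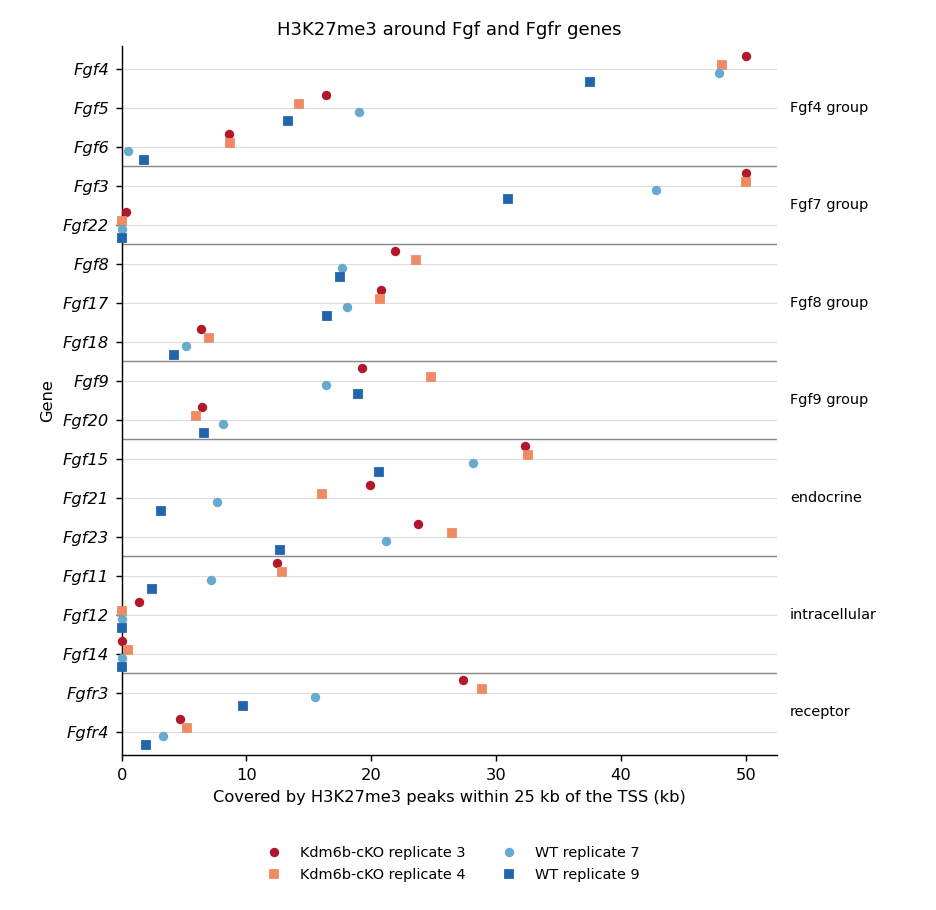
Length in kb covered by H3K27me3 peaks within 25 kb of the TSS for the 18 genes with any cover there, with a point for each of the 4 libraries. Both Kdm6b-cKO points lie above both WT points for 13 of the 17 tested genes, against 65.3% of all tested windows. Among the 13 is Fgf6, at 8.57 and 8.71 kb against 0.540 and 1.79 kb, while the points of Fgf5 interleave.

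Peaks at the FGF starts were longer and stronger than those at other promoters in each library. Their median length was 11.4, 13.8, 13.5 and 10.9 kb in replicates 3 and 4 of Kdm6b-cKO and 7 and 9 of WT, against 5.32, 4.65, 4.70 and 4.03 kb over all promoters with a peak. By the authors' −log10 q, their median percentile in the list was 96.9, 97.2, 97.3 and 96.1, against 88.1, 87.3, 85.3 and 83.9. This holds for 11 to 15 members in each library, and Fgf3 and Fgf4 share a peak in 3 of the 4. No test was run, since peaks of a library are not replicates.

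The total length covered within 25 kb of the 28 starts, with shared windows counted a single time, was 280.3 and 284.2 kb in the Kdm6b-cKO pair and 218.0 and 166.9 kb in WT. The means were 282.3 ± 2.71 and 192.4 ± 36.2 kb (SD, n = 2 each), a ratio of 1.47. A two-sided exact permutation test returned 0.33, the smallest p that 2 against 2 libraries allow. The whole lists differed by a ratio of 1.78 in covered length. As a share of its list, the cover of the FGF windows was 0.189% and 0.229% in the Kdm6b-cKO pair and 0.239% and 0.271% in WT. This share was lower in both Kdm6b-cKO libraries (exact permutation p = 0.33).

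**Figure D4:**
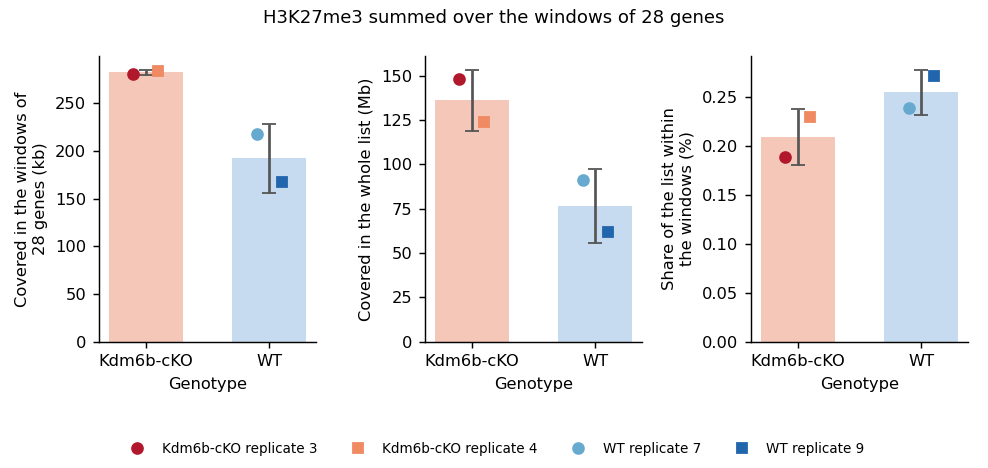
Covered length within 25 kb of the 28 starts in kb, covered length of the whole peak list in Mb, and the first as a percent of the second. Bars give group means with the SD as error bar, and each point is a library. The first 2 panels are higher in Kdm6b-cKO, at 282.3 against 192.4 kb and 136.1 against 76.5 Mb, and the share is higher in WT, at 0.255% against 0.209%.

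Further genes of the pathway were read from a list of 49 co-receptors, adaptors, kinases, inhibitors and targets. At the promoter 7 of the 49 were tested, 2 were higher in the Kdm6b-cKO pair and 0 were lower, against 7.93% and 0.0960% of all tested promoters. Both are heparan sulfate proteoglycans of the glypican family. Gpc1 was covered over 37.5% and 40.5% in the Kdm6b-cKO pair and 9.07% and 4.2% in WT (difference of 32.4 ± 2.61 points, adjusted p = 0.039). The X-linked Gpc3 was covered over 100% and 100% against 32.5% and 19.7% (73.9 ± 5.71 points, adjusted p = 0.037), and the sex of the embryos is not given. Within 25 kb of Gpc3 the groups overlapped, at 28.7 and 14.0 kb against 15.0 and 5.82 kb (adjusted p = 0.328), and within 25 kb of Gpc1 9.68 and 8.91 kb stood against 3.82 and 1.43 kb (adjusted p = 0.060).

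Within 25 kb 26 of the 49 were tested, and 2 were higher, the adaptor gene Frs3 and the kinase gene Akt1, against 7.69% of all windows. Frs3, which links receptors to the MAP kinase cascade, had 6.77 and 6.34 kb covered in the Kdm6b-cKO pair and 0.325 and 0 kb in WT (6.39 ± 0.67 kb, adjusted p = 0.037). Frs3 reached the filter of 500 bp through the Kdm6b-cKO libraries alone, so the filter set its direction. Akt1, of the PI3 kinase branch, had 8.05 and 8.15 kb against 2.61 and 2.19 kb (5.70 ± 0.66 kb, adjusted p = 0.040). Neither had a peak within 3 kb of its start. No gene of the list passed as lower. No alternative setting is reported for the genes of this list.

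Other genes of the list with long cover did not pass at either width they were tested in. The Klotho co-receptor genes Kl and Klb, which the endocrine ligands need, had 10.8, 6.66, 8.02 and 6.51 kb and 13.2, 11.0, 11.2 and 4.55 kb within 25 kb (adjusted p = 0.597 and 0.359). Cbl, a ubiquitin ligase that targets receptors for breakdown, had 8.73, 9.92, 4.58 and 2.09 kb (adjusted p = 0.074), and its groups did not overlap. The phosphatase gene Ptpn11 differed by 0.42 ± 1.37 kb (adjusted p = 0.827).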

How the data were processed

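H3K27me3 ChIP-seq peak lists of 4 libraries were analysed. From the submitters' processing notes, the build was mm10 and the tools were MACS2 2.2.7.1 besides Bowtie2 2.3.5.1, deepTools 3.5.1, SAMtools 1.9 and bcl2fastq. Libraries were subsampled to a like depth by the authors, and broad peaks called at q 0.01 in each. How the input entered the calling is not given in the sources used here, and the input was not used here. The deposited lists give positions and, averaged over each region, a −log10 q and a −log10 p, a fold ratio over background and a display score, as the authors' caller wrote them. These values were used only to rank or filter peaks within a list. The lists hold no counts, so the reads behind each peak are unknown and no counting interval can be given.

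Covered length was computed per library in windows around the 5′ end of each GENCODE M21 gene on 19 autosomes and the X chromosome. The percent of TSS ± 3 kb and the kb of TSS ± 25 kb were compared with limma 3.58.1 (lmFit and eBayes, R 4.3.3) over all windows with at least 500 bp covered in at least 1 library, with Benjamini-Hochberg adjustment over all of them and a threshold of 0.05, and the summed length by exact permutation over the 6 arrangements, two-sided. Covered shares are bounded at 0% and 100%, and equal values at a bound give a group a spread of 0. Scripts (matplotlib 3.10.9, numpy 2.4.6, scipy 1.17.1 and pandas 2.3.3 in Python 3.11.15) were tested on simulated data.

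The genes, lists and tests were chosen with earlier results of these data known. Every member was named, and of the further list those past the threshold at either width and the 6 next with the longest mean cover within 25 kb. Some genes that this rule takes are not reported here. The genes in the plot of peak extent were picked after their values were seen. Alternatives were peak lists of equal number, of equal covered length and at a −log10 q of at least 3, centred libraries, other filters, windows and starts, and each library left out. The alternatives for the summed length were added after the data were seen.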

Additional observations from a re-analysis of the deposited data

How the results depend on the processing

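At TSS ± 3 kb, Fgf6 fell below the filter at equal covered length and Fgf21 with a minimum of 1500 bp, and neither was tested there. In the other alternatives at this width both kept a higher cover in Kdm6b-cKO, and their calls did not all hold. With centred libraries the Fgf21 difference was 0.61 points. Of 369 single-gene values under an alternative, 20 lost and 17 gained the call, and 22 turned direction. The other 310 include values at 0 in the main setting or the alternative, which have no direction to keep. Among these are Fgf3, Fgf5 and Fgf8 at TSS ± 3 kb, at 0 points in the main setting and -17.2 points with centred libraries. The number 310 is thus no measure of stability. At TSS ± 3 kb, where 2 members were called, 1 was called with lists of equal peak number, with peaks at a −log10 q of at least 3 and with a minimum of 1500 bp, and 0 with centred libraries, with no filter and at TSS ± 1 kb. Leaving out a library gave 0 (without WT replicate 9) to 3 calls. At TSS ± 25 kb, where 1 was called, 0 were called with lists of equal peak number, of equal covered length and at the stricter q and with no filter, 2 with a minimum of 1500 bp and 4 with centred libraries. Leaving out a library gave 0 to 6 calls, the 6 without WT replicate 7. Promoters marked in the Kdm6b-cKO pair alone numbered 1 instead of 2 with each of the 3 shortened lists, with a minimum of 1500 bp and at TSS ± 1 kb, 0 at TSS ± 10 kb, and 2 to 4 with a library left out. The cause was not tested.

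Centring moved the median over members from 11.1 to -6.04 points and from 5.14 to 1.09 kb. At TSS ± 3 kb it turned Fgf17 to -15.2, Fgf18 to -6.72, Fgf12 to -5.36, Fgf14 to -12.7 and Fgfr3 to -2.43 points, and at TSS ± 25 kb Fgf17 to -0.57, Fgf18 to -2.01, Fgf12 to -3.35, Fgf14 to -3.79 and Fgfr4 to -1.75 kb. Equal covered length turned Fgf23 to -37.6 points and -8.52 kb, and Fgf6 to -0.89, Fgf18 to -4.65 and Fgf9 to -1.50 kb. With equal peak number Fgf18 was at -0.31 kb. With a library left out Fgf9 ranged from -8.35 to 8.33 points, Fgf15 from -11.2 to 7.98 points and Fgf5 from -3.73 to 1.98 kb.

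No paired analysis was possible because the genotypes share no replicate numbers. A left-out library leaves a lone sample, which limma takes to vary like the other group. With 2 libraries a group and no read counts, weak marks below the peak caller's threshold are not seen.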
